A study of Mus musculus with 20 samples.

Results

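The KO over wild type comparison described here rests on 6 of the 20 arrays of the series, those whose fetal RNA pools carried a small-intestine profile in both channels. Each was a two-colour Agilent whole mouse genome array with RNA of Spdef knockout (KO) fetuses in one dye and RNA of wild type fetuses in the other. The labels give the genotypes as Spdef ko and wildtype and the stage as fetal, which the series' design puts at E18.5, and the material as RNA of dissected whole gut, with 2 to 3 littermates in a pool. Mouse strain and the sex of the littermates are not given in the sources used here. The 6 arrays form 3 pairs of pools, each hybridized in both dye orders, labelled fetal small intestine 1, fetal small intestine 2 and fetal colon 1. The rest of the series were 4 fetal arrays with a colon profile (labelled fetal small intestine 3 and fetal colon 2), 4 arrays of adult small intestine and 6 of adult colon (P30), also KO against wild type.

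Spdef belongs to the ETS transcription factors and is made in secretory cells of the gut lining. Goblet cells secrete the mucin gel that covers the gut and are present before birth, whereas Paneth cells, the antimicrobial cells of the crypt base, mature in the mouse after birth. Enteroendocrine cells, the hormone-secreting branch of the same secretory lineage, are already present in the fetal small intestine. In these bulk RNA pools fewer cells of a type and less RNA per cell cannot be told apart.

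The pairs were chosen by the levels of 3 genes: Hoxd10 and Hoxd13, homeobox genes of the hindgut, had to be low, and Apoa1, an apolipoprotein of small-intestinal absorptive cells, had to be high. Each limit was the midpoint of the gene's range over the fetal channels, which was a log2 intensity of 8.2 for Hoxd10, 8.8 for Hoxd13 and 14 for Apoa1. Hoxd10 lay between 6.91 and 7.14 in the 12 channels of the 3 pairs, none of them well above background, against 8.96 to 9.48 in the 8 fetal channels with a colon profile. Hoxd13 lay between 6.90 and 7.47 in the 3 pairs, against 9.96 to 10.7 in the colon-profile channels. Apoa1 lay between 16.3 and 16.7 in the 3 pairs, against 11.2 to 12 in the colon-profile channels. No fetal channel lay near a midpoint for any of these genes. The pair labelled fetal colon 1 therefore stands here against its label, and the pair labelled fetal small intestine 3 is left out against its label. The pairs placed against their label lay on the same slide. The titles of both fetal colon pairs, 1 and 2, also carry the word adult beside the word fetal.

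**Figure D1:**
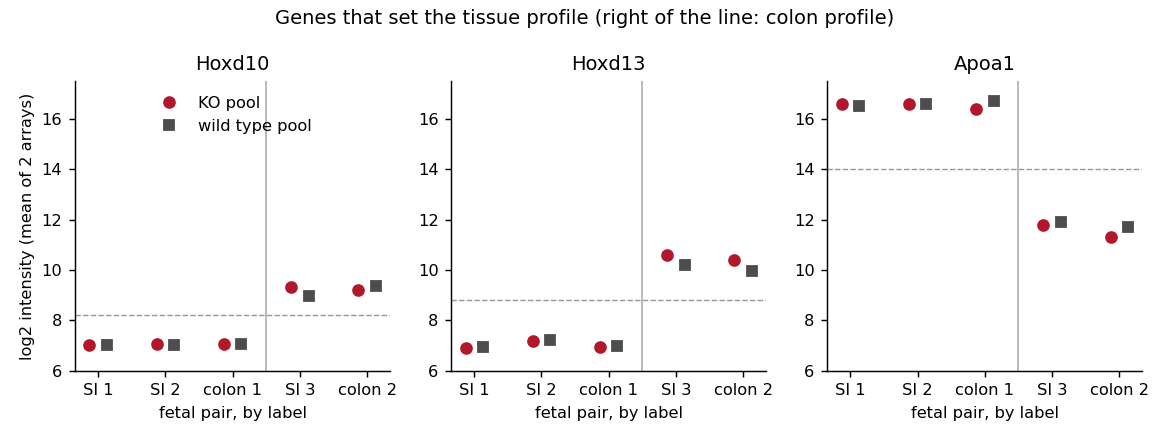
Log2 intensity of Hoxd10, Hoxd13 and Apoa1 in the KO pool (circles) and wild type pool (squares) of each fetal pair, as the mean of 2 arrays, with the midpoint dashed. The KO and wild type pools of the 3 pairs on the left of the line lie below 7.5 for Hoxd10 and Hoxd13 and above 16 for Apoa1.

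Several regional genes that the rule did not use had the same split, which is given as a description, and the Cdx genes did not. Hoxb13 averaged 7.02 in the 3 pairs, against 11.5 in the colon-profile pools, and Hoxa10 averaged 6.89 against 10.7. Hoxa11 averaged 6.93 in the 3 pairs and 10.6 in the colon-profile pools, and Pitx1, a hindlimb and hindgut homeobox gene, averaged 10.6 and 13.1. In the other direction, Onecut2 averaged 11.2 in the 3 pairs and 7.64 in the colon-profile pools, and Gata6, a regulator of the small-intestinal lining, averaged 12.9 and 10.9. Cdx1 and Cdx2, homeobox genes of the whole intestine, had overlapping ranges, with means of 9.55 and 13.4 in the 3 pairs and 9.53 and 12.9 in the colon-profile pools. Within the 3 pairs the pools labelled colon 1 were close to those labelled small intestine 1 and 2, with means of 6.96 and 7.04 for Hoxb13 and 11.4 and 11.1 for Onecut2.

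The 3 pairs count as 2 replicates. Pairs 1 and 2 labelled fetal small intestine, which share a slide, were no further apart than an array and its dye swap (variance ratio 0.847). Other pairs of a group gave ratios of 1.42 to 8.25, so pairs 1 and 2 were averaged to 1 replicate. The second replicate is the pair labelled fetal colon 1, which lay on another slide. Per-pair values below are given in the order fetal small intestine 1, fetal small intestine 2 and fetal colon 1. Between 52.6% and 63.2% of the probes of a channel were well above background on the 6 arrays, against 39.7% to 71.6% over all 20.

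The pools also differed in their X-linked and Y-linked RNA. Eif2s3y, a Y-linked gene of male cells, had log2 intensities of 11, 11.2 and 10.7 in the KO pools, against 7.4, 6.9 and 11.1 in the wild type pools. Xist, the X-inactivation transcript of female cells, had 10.1, 10.1 and 10.7 in the KO pools, against 11.7, 11.8 and 7.3 in the wild type pools. The KO pools thus carried both transcripts in all 3 pairs, the wild type pools of the first 2 pairs carried mainly Xist, and that of the third carried the Y-linked transcript with little Xist. The KO over wild type ratio of these genes ran in opposite directions in the 2 replicates.

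Across the 17695 genes tested the 2 replicates correlated at r = 0.0265, or 0.0403 without the genes on chromosomes X and Y (genes are not independent replicates, and the arrays share the KO over wild type layout). The pair labelled fetal colon 1 correlated at r = 0.5 with the colon-profile pair labelled fetal colon 2, and the pairs labelled small intestine 1 and 2 at r = 0.345 with the pair labelled small intestine 3. In all, 102 genes differed by more than 1 log2 unit between the replicates, 4 of them on X or Y. Among them were genes that cells switch on in response to interferon. Isg15 had a log2 ratio of 0.45 in the small intestine 1 and 2 replicate and -1.59 in the colon 1 replicate, and Ifit3 had 0.50 and -1.47. Of 17 such genes, picked after the values were seen, 17 were above 0 in the small intestine 1 and 2 replicate and 17 were below 0 in the colon 1 replicate. Alb and Ahsg, plasma proteins made in liver, had 0.10 and 0.19 in the small intestine 1 and 2 replicate and -2.36 and -2.69 in the colon 1 replicate. Smooth muscle genes had a median log2 of -0.27 and 0.28, and proliferation genes one of -0.23 and 0.11, in the same order. Their part in the results below was not tested.

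**Figure D2:**
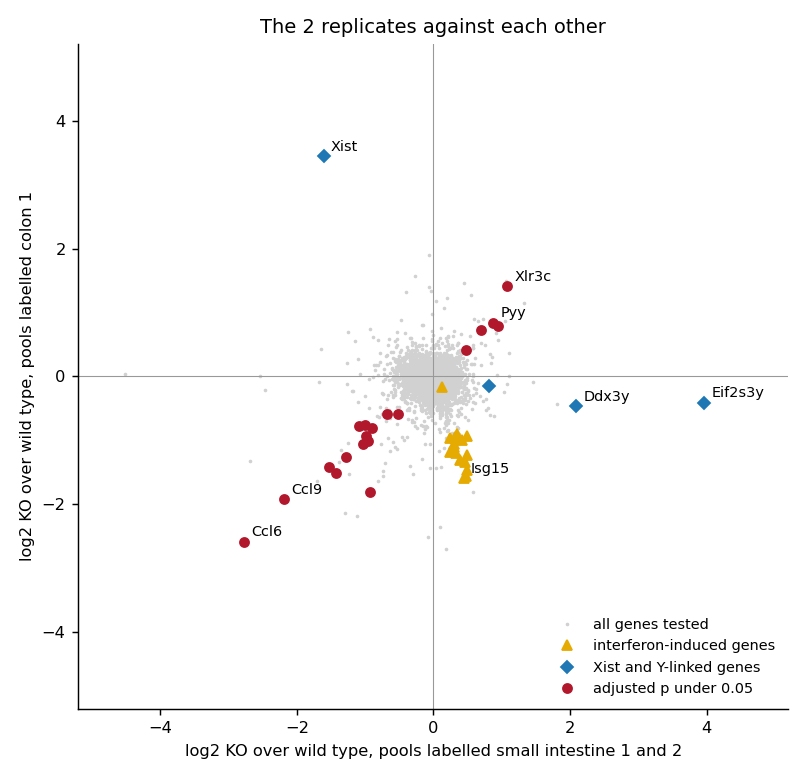
Log2 KO over wild type of the 17695 genes tested (grey) in the replicate labelled small intestine 1 and 2 (horizontal axis) and the replicate labelled colon 1 (vertical axis). Genes past the threshold (red) have the same sign on both axes, from Ccl6 at -2.77 and -2.59 to Xlr3c at 1.08 and 1.41, with Gkn3 the most uneven at -0.93 and -1.81, while Xist, the Y-linked genes (blue) and the interferon-induced genes (yellow) have opposite signs.

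On 6 of 6 arrays the KO channel had less Spdef than the wild type channel, at log2 ratios between -2.41 and -1.20. Its log2 intensity was 7.9, 7.5 and 7.7 in the KO pools, against 9.3, 9.5 and 9.3 in the wild type pools, and the pools of the 2 genotypes did not overlap. The KO signal was well above background on all 6 arrays. Over the 2 replicates the log2 ratio was -1.67 ± 0.27 (limma standard error, adjusted p = 0.148), which did not pass the threshold of 0.05 although the replicates lay at -1.70 and -1.63. The error comes from a spread that all 4 groups share. Spdef was at -3.10 ± 0.27 in the fetal colon-profile pools (adjusted p = 0.00367) and the difference between the 2 fetal groups, 1.43, did not pass (adjusted p = 0.909). The probe lies on chromosome 17, positions 27442294 to 27442353 (mm8). Where it lies relative to the deleted part of the gene is not given in the sources used here.

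Loss of Spdef in these pools went with lower RNA of mucus-cell genes and of a pair of chemokines, and with higher RNA of a gut hormone. In the limma fit 14 genes were lower in KO pools (0.0791% of those tested) and 5 were higher (0.0283%), together 0.107%, and each had the same sign in all 3 pairs.
The largest changes were those of the chemokines Ccl6 and Ccl9, 6.40-fold and 4.15-fold lower. The mucin Muc2 was 2.76-fold lower and its folding partner Agr2 1.97-fold lower, while the hormone gene Pyy was 1.82-fold higher. The calls depend on the shared spread of the 9 replicates. Fitted on the 2 replicates alone, limma called 0 genes (644 at an unadjusted p under 0.05, against 639 in the joint fit), and with a trended and robust prior it also called 0 (550 at an unadjusted p under 0.05). With each array centred on its median in place of loess, the median of all genes moved to -0.27 and the calls were 51 lower and 0 higher.

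Members of the goblet list made up 10 of the 14 genes that fell. Of 48 goblet list members tested, 10 fell, 1 rose and 37 did not pass, with a median log2 of -0.37 against -0.01 over all genes tested. The list was put together with earlier results of these data known, so its count is no independent evidence of a direction or of a cell type. Muc2 encodes the gel-forming mucin of intestinal mucus. Its log2 intensity was 9, 8.9 and 9.1 in the KO pools, against 10.4, 10.5 and 10.5 in the wild type pools. Every KO pool lay below every wild type pool, and the log2 ratio was -1.47 ± 0.14 (adjusted p = 0.0079). Other probes named Muc2 gave 0.009, -0.07 and -0.04, so the change rests on the brightest probe. Agr2, a disulfide isomerase of the endoplasmic reticulum that mucins need to fold, had 14.1, 14.1 and 14.1 in the KO pools and 15, 15.1 and 15.1 in the wild type pools. It was among the most even of the changes, with array ratios between -1.13 and -0.85 and a log2 ratio of -0.98 ± 0.052 (adjusted p = 0.000341).

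Further members of the goblet list fell by similar amounts. Galnt12, an enzyme that adds the first sugar of mucin O-glycans, had 10.9, 11 and 11.1 in the KO pools and 11.9, 12 and 12.1 in the wild type pools (log2 ratio -0.95 ± 0.067, adjusted p = 0.00206). Tpsg1, a tryptase-like serine protease, had 10.1, 10.2 and 9.5 in the KO pools and 11.5, 11.6 and 11.1 in the wild type pools (-1.47 ± 0.098, adjusted p = 0.00163). Hgfac, a protease that activates hepatocyte growth factor, had 8.1, 8 and 8.1 in the KO pools and 9.2, 9.4 and 9.3 in the wild type pools (-1.27 ± 0.097, adjusted p = 0.00276). For these 3 genes every KO pool lay below every wild type pool. Nupr1, a small stress-induced nuclear protein, fell by 1.04 on the log2 scale (adjusted p = 0.0308), Slc12a8, a transporter of the cation-chloride family, by 0.88 (adjusted p = 0.0079) and Rep15, a partner of the vesicle GTPase Rab15, by 0.64 (adjusted p = 0.0382). Beside the list, Lrrc26, a subunit of potassium channels in secretory cells, fell by 0.94 (adjusted p = 0.0296). One further gene that passed as lower has only a predicted name and is counted but not described. Best2, a chloride channel found in goblet cells of the mouse colon, was the list member that rose. It had 9.5, 9.6 and 9.3 in the KO pools and 8.7, 8.6 and 8.5 in the wild type pools (0.87 ± 0.11, adjusted p = 0.0398). Without the small intestine 1 and 2 replicate 6 goblet genes passed as lower, without the colon 1 replicate 7 did, and without both pairs placed against their label 3 did.

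**Figure D3:**
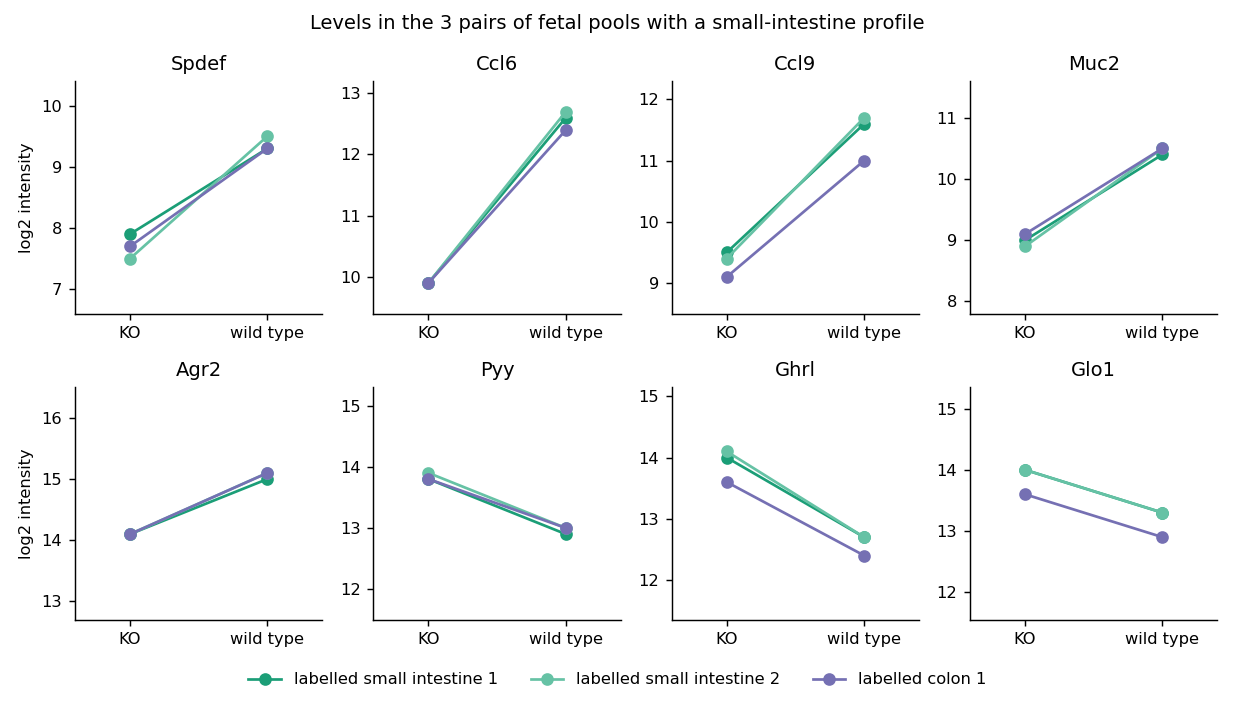
Log2 intensity of 8 genes in the KO pool (left) and wild type pool (right) of each pair, joined by a line. Every KO pool lies below every wild type pool for Spdef, Ccl6, Ccl9, Muc2 and Agr2, and above every wild type pool for Pyy, Ghrl and Glo1.

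Several members of the goblet list had ratios of similar size and did not pass. Creb3l4, a membrane-bound transcription factor of secretory cells, had 9.4, 9.3 and 9.2 in the KO pools and 10.7, 10.7 and 10.5 in the wild type pools (-1.36 ± 0.30, adjusted p = 0.405). Spink4, a secreted protease inhibitor of goblet cells, had 12.6, 12.6 and 12.1 in the KO pools and 13.9, 13.9 and 13.2 in the wild type pools (-1.26 ± 0.21, adjusted p = 0.148). Their KO and wild type pools did not overlap, and their errors come from the spread shared with the other groups. Tff3, the trefoil peptide of intestinal mucus, was at -0.67 ± 0.096 (adjusted p = 0.0783), and Rap1gap, a regulator of the GTPase Rap1, at -0.72 ± 0.097 (adjusted p = 0.0586), with another probe of Rap1gap at -0.06. Reg4, a secreted lectin, had -1.27 and -1.25 in the first 2 pairs and -0.12 in the third. Clca1, a secreted metalloprotease of goblet cells, was at -0.39 ± 0.36 (adjusted p = 1) and Zg16, a lectin of the mucus layer, at -0.24 ± 0.08 (adjusted p = 1). Creb3l1, another member of the list, was at -0.07 ± 0.097 and did not pass. Fcgbp was not among the genes tested.

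As a description of effect size without the shared spread, 35 genes (0.198% of those tested) were at least 1.5-fold lower in all 3 pairs and 11 (0.0622%) at least 1.5-fold higher, a rule chosen after the values were seen. Of the goblet list, 18 of 48 were among the lower genes. Below 0 in all 3 pairs were 41 of the 48, against 22.8% of all genes tested. Spdef itself is on the list and in both counts. The list was put together with earlier results of these data known, so these counts are a description only. Summed over its members, the goblet list had 275000, 272000 and 282000 intensity units in the KO pools, against 382000, 389000 and 367000 in the wild type pools. Bright members weigh most in such a sum, among them Tff3 and Clca1, which did not pass. Tff3 had a log2 intensity of 15.4 in each KO pool and 16 to 16.2 in the wild type pools.

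Ccl6 and Ccl9 encode related CC chemokines, secreted peptides that attract leukocytes. Ccl6 had log2 intensities of 9.9, 9.9 and 9.9 in the KO pools, against 12.6, 12.7 and 12.4 in the wild type pools. Its array ratios lay between -2.96 and -2.58, and its log2 ratio was -2.68 ± 0.099 (95% confidence interval -2.91 to -2.45, adjusted p = 6.1e-05). Ccl9 had 9.5, 9.4 and 9.1 in the KO pools, against 11.6, 11.7 and 11 in the wild type pools (-2.05 ± 0.11, adjusted p = 0.000341). These were the largest falls among the genes that passed, and both were on the goblet list because earlier results of these data had shown them. As paralogs they share sequence, so that their probes may read each other in part. The macrophage and mast cell list, whose cells can also make CC chemokines, had 0 of 16 genes past the threshold and a median log2 of 0.00. Its summed level was 23500 to 24800 intensity units in the KO pools and 23300 to 25900 in the wild type pools. Over all genes tested 0.107% passed, so that 0 of 16 is near that share. The cell source of these chemokines was not tested.

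The promoters of the genes that led the falls are shown because ETS factors are known to bind short DNA motifs with a GGAA or a related core. They are RefSeq promoters of build GRCm38.p6, from 250 bases before to 50 bases after the start of the gene, written 5′ to 3′ on the strand of the gene. Ccl6 is at chr11:83593038-83593337 (minus strand), Ccl9 at chr11:83578587-83578886 (minus strand), Agr2 at chr12:35992675-35992974 (plus strand) and Muc2 at chr7:141690090-141690389 (plus strand). The motifs searched on either strand were CCGGAT (which can overlap the last), then CCGGAA and also GGATGT. Capitals mark a match, and ACATCC is the last of these motifs read on the other strand.
Ccl6: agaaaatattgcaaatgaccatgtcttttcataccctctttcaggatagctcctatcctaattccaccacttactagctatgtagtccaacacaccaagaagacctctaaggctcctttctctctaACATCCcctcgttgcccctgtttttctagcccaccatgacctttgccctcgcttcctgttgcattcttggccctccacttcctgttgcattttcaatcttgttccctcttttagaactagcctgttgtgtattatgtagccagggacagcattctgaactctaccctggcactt
Ccl9: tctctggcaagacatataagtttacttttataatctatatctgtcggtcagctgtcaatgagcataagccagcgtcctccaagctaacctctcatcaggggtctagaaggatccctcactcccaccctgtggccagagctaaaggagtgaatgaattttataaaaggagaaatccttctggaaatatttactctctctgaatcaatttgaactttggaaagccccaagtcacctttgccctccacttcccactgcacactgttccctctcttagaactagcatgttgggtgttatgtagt
Agr2: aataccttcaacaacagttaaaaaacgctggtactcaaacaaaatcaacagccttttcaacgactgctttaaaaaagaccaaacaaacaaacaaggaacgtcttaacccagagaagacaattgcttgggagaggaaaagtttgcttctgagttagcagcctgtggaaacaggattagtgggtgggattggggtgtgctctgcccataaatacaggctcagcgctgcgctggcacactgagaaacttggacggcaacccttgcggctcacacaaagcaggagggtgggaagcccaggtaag
Muc2: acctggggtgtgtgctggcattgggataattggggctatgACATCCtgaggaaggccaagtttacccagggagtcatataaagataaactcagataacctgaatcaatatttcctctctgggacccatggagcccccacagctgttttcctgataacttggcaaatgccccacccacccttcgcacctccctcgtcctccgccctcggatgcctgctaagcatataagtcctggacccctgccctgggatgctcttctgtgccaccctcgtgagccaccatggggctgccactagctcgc

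Ccl6 and Muc2 each held GGATGT on the other strand, and the Ccl9 and Agr2 windows held none of the 3 motifs. Of the 14 genes that fell, 11 had a promoter in the table, with 14 windows. At least 1 of the 3 motifs was in 2 of these windows (14.3%), in 1 of 5 windows (20%) of the genes that rose, in 35.3% of the 15087 windows of genes tested and in 27.9% of all 32851 windows. A match is a string of letters and not a shown binding site, and no match says only that these letters are not in this window. The GGAA core alone was not searched or marked. The lower-case letters hold it in places, also as TTCC, its reading on the other strand.

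Of the hormone genes of enteroendocrine cells, Pyy was higher in the KO pools. Of 35 enteroendocrine list members tested, 1 rose, none fell and 34 did not pass, with a median log2 of 0.11. Pyy, the gut hormone peptide YY, had 13.8, 13.9 and 13.8 in the KO pools, against 12.9, 13 and 13 in the wild type pools. No KO pool overlapped a wild type pool, and the log2 ratio was 0.86 ± 0.063 (adjusted p = 0.00218), with 0.69 at another probe. Ghrl, which encodes the hormone ghrelin, had 14, 14.1 and 13.6 in the KO pools, against 12.7, 12.7 and 12.4 in the wild type pools (1.24 ± 0.16, adjusted p = 0.051). It missed the threshold by little and its other probe gave 1.31. The hormone genes Cck (0.74, adjusted p = 0.255) and Sct (0.76, adjusted p = 0.878) were also at least 1.5-fold higher in all 3 pairs and did not pass. Above 0 in all 3 pairs were 21 of the 35 members, against 14.8% of all genes tested. Other hormone genes were near 0, with Sst at 0.01 ± 0.17, Gip at 0.09 ± 0.13 and Gast at 0.04 ± 0.079 (adjusted p = 1 for each). Neurog3, the transcription factor that starts the enteroendocrine fate, was at 0.27 ± 0.063 (adjusted p = 0.451). Chga, a granule protein of most enteroendocrine cells, was at -0.03 ± 0.22 (adjusted p = 1). Summed over the list, the level was 217000, 219000 and 201000 intensity units in the KO pools and 144000, 148000 and 127000 in the wild type pools. Sct, which did not pass, weighs heavily in this sum. Its log2 intensity was 16.6, 16.6 and 16.3 in the KO pools and 16, 16 and 15.4 in the wild type pools. The sum is thus no measure of a list-wide rise.

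**Figure D4:**
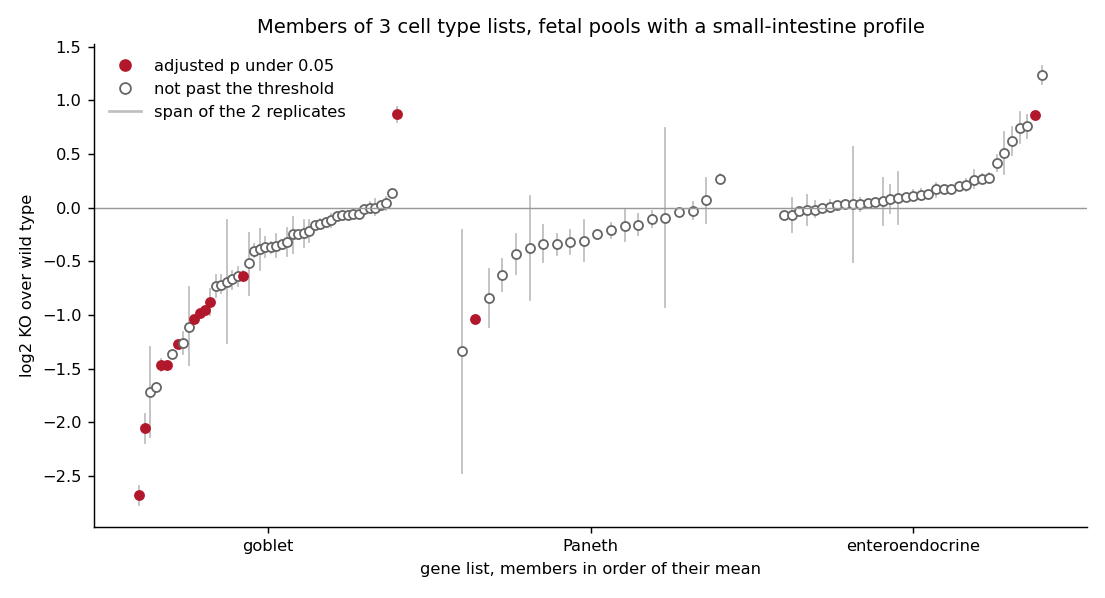
Log2 KO over wild type of every tested member of the goblet (48), Paneth (20) and enteroendocrine (35) lists, each list in order of its values, with filled points past the threshold and grey bars that join the 2 replicates. Goblet members reach down to -2.68 (Ccl6) and enteroendocrine members up to 1.24 (Ghrl).

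Most Paneth cell genes had ratios below 0 and did not pass. Of 20 members tested 1 fell (Nupr1, also on the goblet list), none rose and 19 did not pass, with a median log2 of -0.28. Below 0 in all 3 pairs were 15 of the 20, against 22.8% of all genes tested. The median was -0.43 in the small intestine 1 and 2 replicate, -0.15 in the colon 1 replicate and -1.09 in adult small intestine. Lyz1, the lysozyme of Paneth cells, had 10.2, 10.2 and 10.4 in the KO pools and 10.7, 10.7 and 10.5 in the wild type pools (-0.31 ± 0.13, adjusted p = 1). In adult small intestine its log2 ratio was -1.54 ± 0.13 (adjusted p = 0.00318), and the difference between the fetal pools and the adult tissue, 1.24, did not pass (adjusted p = 0.135). Mmp7, the protease that activates defensins in mouse Paneth cells, was at -0.63 ± 0.18 (adjusted p = 0.834), and Itln1, a lectin of Paneth and goblet cells, at -0.84 ± 0.52 (adjusted p = 1). Defensin probes belong to a multigene family whose members are nearly identical, and their separate values are uncertain. Defa21, one of them, had -2.30, -2.63 and -0.21 in the 3 pairs (-1.34 ± 0.43), and it did not pass.

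Regulators that decide the secretory fate did not pass. Atoh1, which is needed for all secretory cells of the gut, was at -0.06 ± 0.12 (adjusted p = 1), but its log2 intensity of 7.3 to 7.5 lay near the background. Gfi1, which acts below Atoh1, was at -0.28 ± 0.11, Klf4, a factor of goblet cells, at -0.37 ± 0.095 and Foxa3, another goblet cell factor, at -0.34 ± 0.11 (adjusted p of 0.621 or more for these 3). The Notch ligand Dll1 was at -0.21 ± 0.09 and the Notch target Hes1 at 0.03 ± 0.11 (adjusted p = 1 for each). Of 38 genes of the Notch and secretory fate list none passed, against 0.107% of all genes tested. Lgr5, a receptor of crypt stem cells, was at -0.10 ± 0.099 and Mki67, a proliferation marker, at -0.06 ± 0.078 (adjusted p = 1 for each).

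In the secretory machinery single genes passed. Of 64 genes of endoplasmic reticulum folding and secretion 1 fell (Agr2), with a median log2 of -0.02, and of 54 mucin glycosylation genes 1 fell (Galnt12), with a median of -0.06. Of the 24 lists 18 had no gene past the threshold: those of enterocytes (44 tested), stem cells and Wnt (25), Notch and secretory fate (38), proliferation (34), inflammation (33), X and Y linked genes (5), regional identity (26), tuft cells (15), smooth muscle (16), neurons and glia (22), mesenchyme (18), interstitial cells of Cajal (5), endothelium (12), macrophages and mast cells (16), lymphocytes (13), erythroid cells (8), liver (13) and pancreas (21). Their medians lay between -0.21 and 0.07, except that of the X and Y linked genes (0.81). Over all genes tested 0.107% passed, a share at which most lists of 5 to 44 genes would hold none. These counts therefore do not show that a cell type was unchanged. Smooth muscle genes summed to 136000, 139000 and 199000 intensity units in the KO pools, against 166000, 172000 and 158000 in the wild type pools, and liver genes to 130000, 130000 and 106000 in the KO pools, against 92700, 95900 and 159000 in the wild type pools.

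Gkn3, which encodes a gastrokine of the stomach lining, was among the genes that fell and was uneven between the replicates. It had 9.3, 9.3 and 9.2 in the KO pools and 10.1, 10.2 and 11 in the wild type pools (-1.37 ± 0.17, adjusted p = 0.0398). Tff2, a trefoil peptide of stomach and duodenal glands, had 8.7, 8.6 and 8.6 in the KO pools and 9.9, 10 and 10.8 in the wild type pools (log2 ratio -1.72, adjusted p = 0.769). Both genes were highest in the wild type pool labelled colon 1. So was Tff1, a trefoil peptide of the stomach surface, with 8.2, 8.2 and 8.2 in the KO pools and 8.4, 8.5 and 9 in the wild type pools (log2 ratio -0.52, adjusted p = 0.584). Of 14 stomach genes chosen after the values were seen, 9 were tested and 7 were above background in all wild type channels. Gkn3, Tff2, Tff1 and Gkn2 (-0.14, adjusted p = 0.986) made 4 below 0 in all 3 pairs. Over all genes tested 22.8% were below 0 in all 3 pairs, so this count is a description only. Gkn1 and Cblif, which makes gastric intrinsic factor, were above background in no channel of the 6 arrays. Muc5ac, the mucin of the stomach surface, lay between 7.4 and 7.6 in all pools. Carry-over of stomach tissue was not tested beyond these values. Sval1, a gene related to seminal vesicle antigen, fell by 0.55 on the log2 scale (adjusted p = 0.0296).

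Of the genes that rose, Glo1 encodes the glyoxalase that detoxifies methylglyoxal. It had 14, 14 and 13.6 in the KO pools, against 13.3, 13.3 and 12.9 in the wild type pools (0.72 ± 0.057, adjusted p = 0.00321). Its probe lies 2.88 Mb from that of Spdef on chromosome 17, and that of Tpsg1 lies 2.34 Mb from it. Within 5 Mb of the Spdef probe 221 other genes were tested. Of these 1 rose (Glo1) and 1 fell (Tpsg1), against 0.0283% and 0.0791% of all genes tested. At least 1.5-fold lower in all 3 pairs were 3 of them (Tpsg1, Tff3 and Tff2), and 1 was higher (Glo1), against 0.198% and 0.0622%. Alleles that came with the targeted locus and loss of Spdef cannot be told apart in this design. Xlr3c, of an X-linked lymphocyte-regulated gene family with near-identical copies, had 10.5, 10.6 and 10.7 in the KO pools and 9.5, 9.5 and 9.3 in the wild type pools (1.24 ± 0.12, adjusted p = 0.00924). Its log2 ratio was 1.08 in the small intestine 1 and 2 replicate and 1.41 in the colon 1 replicate, in which the Xist ratio was -1.61 and 3.44. The part of the X and Y make-up of the pools in this result was not tested. Prodh2, a proline and hydroxyproline dehydrogenase, had 12.5, 12.5 and 12.6 in the KO pools and 12.1, 12 and 12.2 in the wild type pools (0.44 ± 0.056, adjusted p = 0.0413).

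The 19 genes were then set beside the other groups, which came from the same fit and share its spread, so that the counts are not independent. Ratios of the fetal groups also ran together by label. Xist was at -1.61 (labelled small intestine) and 3.44 (labelled colon) here, and at -1.12 and 4.6 in the colon-profile pools. Eif2s3y was at 3.97 and -0.41 here, and at 3.52 and -0.75 there. The fit treats these pools as separate replicates. In the fetal colon-profile pools 19 of the 19 had the same sign and 12 passed (37 genes passed there, 0.209%). In adult small intestine 17 had the same sign and 9 passed (80 genes, 0.452%). In adult colon 17 had the same sign and 13 passed (1674 genes, 9.46%, with 3.72% higher and 5.74% lower). The same-sign share over all genes tested was not taken, so the sign counts are a description only. Ccl6 was at -2.68 ± 0.099 here, -1.41 ± 0.099 in the colon-profile pools and -1.65 ± 0.099 in adult small intestine. Its differences of -1.27 and -1.03 did not pass (adjusted p = 0.113 and 0.115). Muc2 was at -1.47 ± 0.14 here, -2.07 ± 0.14 in the colon-profile pools and -0.64 ± 0.14 in adult small intestine, and these differences did not pass either (adjusted p = 0.941 and 0.418). Pyy was at 0.86 here, 0.80 in the colon-profile pools, 0.55 in adult small intestine and 0.16 in adult colon. Best2 was higher here, at 0.87, and lower in adult colon, at -0.76 (adjusted p = 0.00388), a difference that was not tested.

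**Figure D5:**
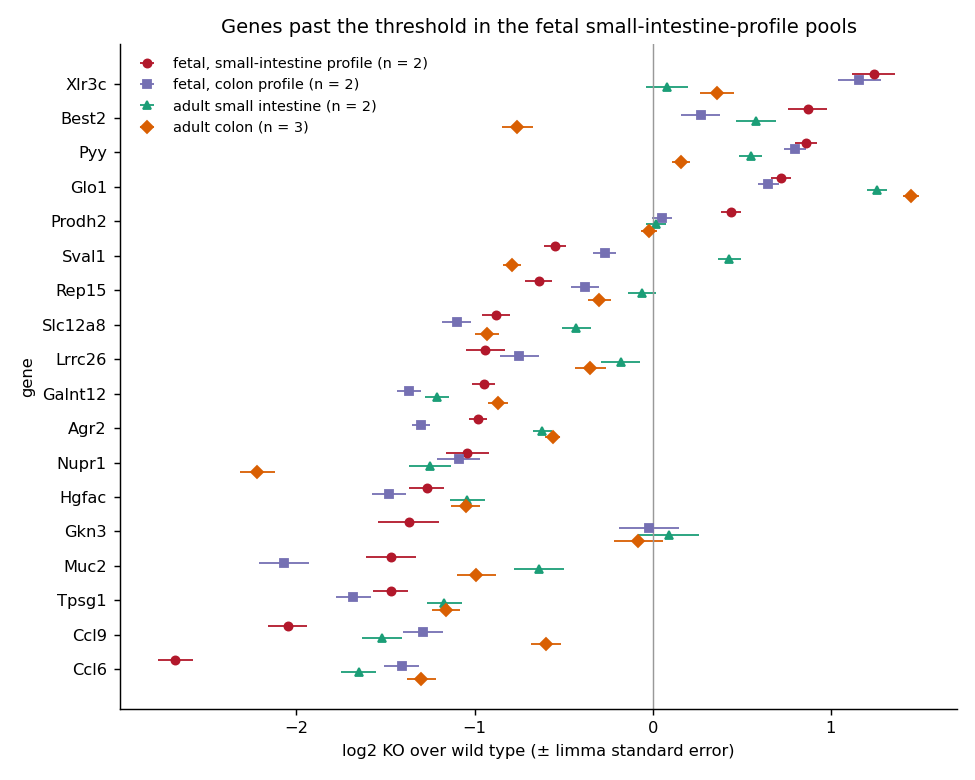
Log2 KO over wild type of the 18 named genes past the threshold, with limma standard errors, in the fetal small-intestine-profile pools (circles), the fetal colon-profile pools (squares), adult small intestine (triangles) and adult colon (diamonds). Ccl6 lies at -2.68 in the fetal small-intestine-profile pools and between -1.65 and -1.30 in the other groups.

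The KO effect differed between the 2 fetal profiles for 1 of 17695 genes (0.00565%), with 876 at an unadjusted p under 0.05. Zg16 was at -0.24 ± 0.08 here and 1.08 ± 0.08 in the colon-profile pools, a difference of -1.32 (adjusted p = 0.0439). This call was lost without 8 of the 9 replicates in turn (adjusted p up to 0.232). Against adult small intestine the KO effect differed for 3 genes (0.017%, of which 0.0113% higher and 0.00565% lower), with 1064 at an unadjusted p under 0.05. Sval1 was at -0.55 ± 0.063 here and 0.43 ± 0.063 in adult small intestine (difference -0.98, adjusted p = 0.0229), and it passed without 2 of the 9 replicates in turn. Prm1, a protamine of sperm, was at -0.05 ± 0.085 here and -1.75 ± 0.085 in adult small intestine (difference 1.70, adjusted p = 0.00519). Krtap19-1, a hair keratin-associated protein, was at 0.01 ± 0.055 here and -1.48 ± 0.055 in adult small intestine (difference 1.49, adjusted p = 0.000983). Prm1 and Krtap19-1 passed without any of the 9 replicates in turn, and their change lay in the adult tissue. With all probes of a gene averaged, the Prm1 difference was 0.84 and did not pass (limma adjusted p = 0.104), so it rests largely on the brightest probe.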

How the data were processed

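Total RNA of KO and wild type pools (2 to 3 littermates, 500 ng each) was amplified, labelled and hybridized in dye-swapped pairs, per the labels. The authors read the arrays with Agilent Feature Extraction 9.5.3, per the submitters' processing notes, and the deposited mean and background signals are linear intensity values. The deposited log ratio is log10 of red over green, per the file headers. The deposited series table, whose base and direction were read by setting it against the scanner values (r = 0.977 to 0.999), holds log2 KO over wild type with column medians of 0.

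Here limma 3.58.1 (R 4.3.3) was used for normexp background correction with offset 50 and for loess within arrays. Control and outlier spots were left out, and dye-swapped arrays were averaged. A probe was kept if some group had it well above background on every array in 1 genotype, and the brightest probe stood for a gene, which gave 17695 of 27569 genes. Names came from RefSeq accessions (23477 probes), symbols (6678), older symbols (2891) or the files (8128). All 9 replicates entered 1 fit with 4 group terms and 5 residual degrees of freedom. Two-sided p-values were adjusted by Benjamini-Hochberg across all genes tested. Levels are log2 intensities after loess and Aquantile scaling, comparable between pools and not between genes. Errors (±) are standard errors of that fit in log2 units (n = 2 replicates of 3 pairs). Nothing states that replicates of a group came from separate litters, so p-values measure the spread between these pools.

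The members, the 24 gene lists and the panel of named genes were chosen with earlier results of these data known. Named were Spdef, the profile genes and the panel except Ddx3y, Kdm5d and Uty. Also named were up to 15 called genes each way, up to 4 called per list and up to 5 each way per difference. Clone and predicted names were only counted, and other genes are named as chosen after their values were seen. Same-numbered pools of different groups did not deviate together (r = -0.0719 to 0.0849 across genes for 9 pairs), so numbers were not used to pair them. Pools with other numbers had r = -0.393 to 0.393 (21 pairs). Fetal pools with the same tissue label deviated together across the profiles, and the main fit does not model this.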

Additional observations from a re-analysis of the deposited data

Results flagged for a closer look

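In 4 genes the KO effect itself differed between groups in the limma fit. The effect on Zg16, a lectin of the mucus layer, was 1.32 log2 units lower in the fetal small-intestine-profile pools than in the fetal colon-profile pools (difference -1.32, adjusted p = 0.0439), with -0.24 here and 1.08 there. Its alternatives gave differences between -1.99 and -0.16, and 11 of 26 passed. Sval1 differed from adult small intestine by -0.98 (adjusted p = 0.0229; 13 of 25 alternatives passed). Prm1 differed by 1.70 (adjusted p = 0.00519, 20 of 25 passed) and Krtap19-1 by 1.49 (adjusted p = 0.000983, 21 of 25 passed). With all its probes averaged, Prm1 differed by 0.84 and did not pass. Single replicates far from the others were not looked for, since each group has 2 or 3 replicates.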

How the results depend on the processing

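The count of genes past the threshold, 19, was 25 with the scanner's processed signals, 32 with no background subtraction, 51 with median centring, 12 with the replicate block, 0 on the 2 replicates alone, 10 on the 4 fetal replicates alone, 77 with groups as labelled, 83 with pairs 1 and 2 as separate replicates, 133 with every array its own observation and 0 with the trended and robust prior. Leaving out 1 replicate gave 10 to 24, and 9 to 15 of the 19 genes passed again; the lowest count came without adult colon replicate 1, a group that enters only through the shared spread. Added after the data were seen, the tissue label as a block gave 27 and the fit without the 2 pairs placed against their label 13, of which 4 were among the 19. All 18 named genes that passed kept their sign under the 27 alternatives that gave them a value. Agr2, Galnt12, Tpsg1, Hgfac, Ccl6, Ccl9 and Pyy passed without any of the 9 replicates, whereas Best2, Prodh2, Gkn3, Lrrc26 and Rep15 passed without 2 or fewer; Muc2 did not pass with all its probes averaged or on either replicate alone.

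The difference between the fetal profiles, 1 gene, was 3 with the scanner's signals, no background subtraction, a strict filter or pairs 1 and 2 separate, 6029 with median centring (median of all genes -0.44), 0 with no filter, the replicate block, the 4 fetal replicates alone or the label block, 39 as labelled, 12 by array, 11 in the series table, 2 without both pairs placed against their label and 0 to 4 leaving out 1 replicate. The difference from adult small intestine, 3 genes, was 1 with median centring, 0 with the replicate block, the trended prior or without both such pairs, 43 as labelled, 40 with pairs separate, 115 by array, 11 in the series table or with the label block and 2 to 18 leaving out 1 replicate. The cause of these changes was not tested. The number of arrays limits the precision.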

Other observations

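Metallothionein 2 (Mt2), a zinc-binding protein, was lower in all 3 pairs without passing, with a log2 ratio of -2.69 in the small intestine 1 and 2 replicate and -1.32 in the colon 1 replicate (mean -2, limma adjusted p = 0.164). The kallikrein genes Klk1, Klk1b3 and Klk1b4, secreted serine proteases with near-identical copies, were at -1.11, -1.22 and -0.90 (adjusted p = 0.34, 0.377 and 0.571), and each was at least 1.5-fold lower in all 3 pairs. Xlr4b, of the same X-linked family as Xlr3c, was at 1.28 (adjusted p = 0.16). These genes were chosen after their values were seen.

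Some ratios followed the tissue on the label and not the tissue profile. Itga9, an integrin, had 0.47 and -1.60 in the replicates labelled small intestine 1 and 2 and colon 1, and 0.89 and -1.59 in the colon-profile pools labelled small intestine 3 and colon 2. Ptprg, a receptor phosphatase, had 0.49 and -1.37, and 0.66 and -1.09, in the same order. Across 17695 genes the difference between the 2 small-intestine-profile replicates correlated at r = 0.393 with the difference between the 2 colon-profile replicates, or 0.348 without genes on X and Y. Genes are not independent, and the labels do not say which pools share a litter.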
